A study of Mus musculus with 4 samples.

Results

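Calm2 and Calm3 are mouse genes that encode calmodulin, and they were followed as 2 genes among the 27998 of the Illumina matrix and the 12561 of the Nanopore matrix. The members were the rows of these symbols in the Illumina gene table and all isoform rows of these genes in the Nanopore tables, in cells with at least 1400 genes detected by Illumina. Both genes had UMIs in all 4 libraries. Other calmodulin genes were not analysed here. All cells came from the joined cortex, hippocampus and subventricular zone of E18 brain, that is, at day 18 of embryonic life, of the C57BL/6 strain, and the labels name no treatment. They were captured on the 10x Genomics Chromium system, which labels every captured RNA with the barcode of its cell and with a UMI, a random sequence by which molecules rather than reads are counted. A single emulsion was divided into aliquots, of which 1 held 190 and 1 held 951 cells, and the cDNA of each was read both with Illumina short reads near the poly(A) tail and with Nanopore long reads. The 2 aliquots are therefore technical replicates, and p-values below measure the spread between aliquots, not between animals. Those from the edgeR fits also use a spread shared over all genes, not that of Calm2 and Calm3 alone.

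Calmodulin is a small protein with EF-hand calcium-binding loops that changes shape when calcium binds and then attaches to kinases, phosphatases, channels and pumps. In mammals several separate genes encode the same protein, so the genes can differ in where and when the protein is made but not in what the protein is. In neurons calmodulin is known as the sensor that passes calcium signals to CaM kinase II, the phosphatase calcineurin and adenylyl cyclases. Radial glia are progenitors of the developing cortex, intermediate progenitors arise from them, and glutamatergic neurons, which are excitatory, follow. GABAergic neurons are inhibitory neurons. Whether the GABAergic-like cells here descend from cells like the radial glia-like ones was not tested. Words such as rose and fell below thus give only the direction of a comparison between classes, not a change along a lineage.

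Calm2 (ENSMUSG00000036438) lies on the minus strand of chromosome 17 from 87433412 to 87446935, and Calm3 (ENSMUSG00000019370) on the minus strand of chromosome 7 from 16915379 to 16924114, both in Gencode vM21 coordinates (GRCm38, which mm10 also denotes). The major isoforms, Calm2-201 and Calm3-201, have 6 exons each. Their coding parts are equally long, 447 bases without the stop codon, and encode the same 149 amino acids with 0 differences. The genes differed at 78 of these bases (82.6% identity), 74 of them at the last position of a codon. The first 150 coding bases are shown because they let a reader see how the same protein is written differently by the genes, with the 23 differing bases in capitals. They are spread over 3 exons, between 87435819 and 87446795 on chromosome 17 for Calm2 and between 16917613 and 16923843 on chromosome 7 for Calm3, and are read 5′ to 3′ from the start codon.

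Calm2-201: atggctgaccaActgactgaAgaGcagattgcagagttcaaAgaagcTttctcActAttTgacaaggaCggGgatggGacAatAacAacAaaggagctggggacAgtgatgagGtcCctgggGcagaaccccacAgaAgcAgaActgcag

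Calm3-201: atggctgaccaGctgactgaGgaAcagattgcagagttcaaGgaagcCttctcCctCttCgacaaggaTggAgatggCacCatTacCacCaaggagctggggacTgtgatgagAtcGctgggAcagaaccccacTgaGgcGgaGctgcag

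The longest run of bases that the whole Calm2-201 and Calm3-201 transcripts had in common was 17, and no stretch of 57 bases, the length of the Illumina transcript read, occurred in both (0 shared). Over the last 500 bases of each transcript, where the Illumina reads were primed, the longest common run was 15. After the stop codon, Calm2-201 has 615 bases and Calm3-201 has 1569. Reads of these 2 isoforms could thus be told apart by sequence.

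After the filter, 186 of 190 and 935 of 951 cells were kept, with 1809081 and 8295650 Illumina UMIs and 993220 and 4889148 Nanopore UMIs. The median cell had 8048.5 and 7551 Illumina UMIs. Among kept cells, 12 barcodes were found in both aliquots, and results are given without these cells where they changed a call. Clustering of the Illumina counts, without Calm2, Calm3 and a list of calcium genes, gave classes named from fixed markers. Progenitors, with cells of the smaller and then of the larger aliquot, were intermediate progenitor-like (16, 70), radial glia-like (13, 56) and cycling radial glia-like (25, 95) cells. The cycling class was named from cell cycle markers alone, and intermediate progenitor markers scored next in it. Its name thus does not show that it holds only radial glia. Neurons were glutamatergic-like cells, immature (22, 125) or mature (43, 237), GABAergic-like cells, immature (30, 143) or mature (18, 127), and Cajal-Retzius-like cells (3, 12). A further cluster led by Hs6st2 (16 and 70 cells) stayed unnamed. Over the whole libraries, all listed markers of each named class had UMIs in both aliquots, except Neurog1 in the smaller. Not all were raised in the class they name. The mature glutamatergic-like class joined clusters with 8 and 5 of 11 listed markers raised. The mean log2 difference of the markers from other cells was 1.04 and 0.28 in them, beside 0.2 for the best list in the unnamed cluster. In CPM (UMIs scaled to a library total of 1 M), microglia markers summed to 2.2 and 62.0 and erythrocyte markers to 603.6 and 512.7. The part of erythrocyte RNA in the results was not tested. The 6 cells with at least 10 UMIs of microglia, endothelial or pericyte markers lay in the radial glia-like and intermediate progenitor-like classes. Leaving these cells out was among the alternatives below.

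Both genes were abundant and present in nearly every cell. Calm2 had 1876 and 8717 Illumina UMIs in the smaller and the larger aliquot, or 1037 and 1051 CPM, and ranked 156 of 14297 and 150 of 16083 genes with a UMI. Calm3 had 884 and 3933 UMIs, or 489 and 474 CPM, and ranked 295 and 294. The aliquots thus agreed within a few percent for both genes, and Calm2 was 2.12 and 2.22 times as abundant as Calm3. Each UMI counts a captured molecule whatever the length of the transcript, so the UMI counts of the genes were set against each other without division by length.

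In single cells, Calm2 averaged 10.1 UMIs (SD 8.10, n = 186 cells) and 9.32 UMIs (SD 8.25, n = 935 cells), and Calm3 averaged 4.75 (SD 3.93) and 4.21 (SD 3.97). Both genes had a UMI in 95.7% and 92.1% of the cells. Calm2 alone was seen in 2.69% and 6.63%, Calm3 alone in 1.61% and 1.18%, and neither gene in 0 and 1 cells. Every class is known to use calmodulin, so no class could serve as a background for free RNA.

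Nanopore reads gave relatively more molecules of both genes than Illumina reads did. For Calm2, Nanopore counted 1196 and 5809 UMIs, or 1204 and 1188 CPM. For Calm3 it counted 647 and 3108 UMIs, or 651 and 636 CPM. Per 100 Illumina UMIs there were 63.8 and 66.6 Nanopore UMIs of Calm2 and 73.2 and 79.0 of Calm3, against 54.9 and 58.9 of all genes together. All genes here were 27998 on Illumina and 12561 on Nanopore, where only UMIs matched to an annotated isoform were counted. The ratio for all genes thus divides unlike sets of genes. In CPM, both Nanopore values lay above both Illumina values for each gene. In edgeR on the 4 libraries, the log2 fold change of Nanopore against Illumina was 0.32 (SE 0.076, adjusted p = 0.0158) for Calm2 and 0.55 (SE 0.081, adjusted p = 0.00322) for Calm3. So many genes differed between platforms (50.5% of 9855 called) that 2 calls among 2 members do not set them apart. Scaling by library totals lowered all log2 fold changes by 0.19, which left 0.14 for Calm2 (adjusted p = 0.0909) and 0.36 for Calm3 (adjusted p = 0.00764). The call for Calm2 was also lost without the Nanopore library of the larger aliquot (0.28, adjusted p = 0.0681), in a fit whose lone Nanopore library is assumed to vary like the others.

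Cell by cell the counts of the platforms were correlated but not equal. The Nanopore count exceeded the Illumina count in 1 of 186 and 3 of 935 cells for Calm2, and in 0 and 6 cells for Calm3. The correlation of Nanopore with Illumina UMIs across cells was 0.949 in both aliquots for Calm2, and 0.941 and 0.959 for Calm3. These are descriptions over 186 and 935 cells, which share depth and the same captured molecules. A Nanopore UMI was assigned only by a match to an Illumina UMI of the same cell and gene or region. A high correlation was thus largely built in. Over the 16 sums of an aliquot and a class, the ratio of Nanopore to Illumina CPM ranged from 1.04 to 1.34 for Calm2 (median 1.14) and from 1.03 to 1.39 for Calm3 (median 1.35). It was above 1 in 16 of 16 sums for both genes.

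Of the annotated isoforms, the Nanopore files held 3 of Calm2 and 2 of Calm3, and nearly all UMIs belonged to the isoform that encodes calmodulin. Calm2-201 took 1194 of 1196 UMIs (99.8%, exact binomial 95% interval 99.4 to 99.98) in the smaller aliquot and 5776 of 5809 (99.4%, 99.2 to 99.6) in the larger. Calm3-201 took 646 of 647 UMIs (99.8%, 99.1 to 99.996) and 3107 of 3108 (99.97%, 99.8 to 99.999). These intervals, and all others below, cover counting error only. Since the Nanopore counts hold only UMIs that matched an annotated isoform, molecules with other structures were not counted.

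The rest were a few molecules of isoforms with no annotated calmodulin reading frame or with one marked for decay. Calm2-203, a retained intron isoform of 657 bases between 87434894 and 87446849 on chromosome 17, had 2 and 21 UMIs. Calm2-202, a retained intron isoform of 890 bases between 87433720 and 87446848, had 0 of 1196 UMIs in the smaller aliquot, which allows a share of up to 0.251% when 3 counts are taken as the limit (0.308% by the exact interval), and 12 in the larger. Calm3-202, an isoform of 648 bases marked for nonsense-mediated decay between 16915401 and 16917165 on chromosome 7, had 1 UMI in each. Over both aliquots, minor isoforms made up 0.419% of Calm2 UMIs in mature glutamatergic-like cells (exact interval 0.217 to 0.731), 1.05% in cycling radial glia-like cells (0.482 to 1.99) and 0.573% in radial glia-like cells (0.0695 to 2.05). The intervals overlap. In the edgeR test of isoform usage neither gene passed the filter on low counts, so 0 of 7 class comparisons gave a value for them. Without that filter, all adjusted p-values of both genes were 1, and the lowest unadjusted p was 0.036, for Calm2 in intermediate progenitor-like against radial glia-like cells. A difference in isoform usage was not detectable at this depth.

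The genes differed in how their levels varied between classes, and the plot of levels by class shows this. Among the 8 classes large enough to test, which leave out Cajal-Retzius-like cells, Calm2 was lowest in radial glia-like cells and highest in the mature glutamatergic-like and GABAergic-like classes, and Calm3 had a different order. By the mean of 2 aliquots on Illumina, Calm2 spanned 2.24-fold over 8 classes, from 600 to 1341 CPM, and Calm3 1.72-fold, from 323 to 554 CPM. On Nanopore the spans were 2.50-fold and 1.92-fold. With bulk sums, more RNA of the gene in each cell and more cells with it cannot be told apart, so single cells are taken up further below.

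**Figure D1:**
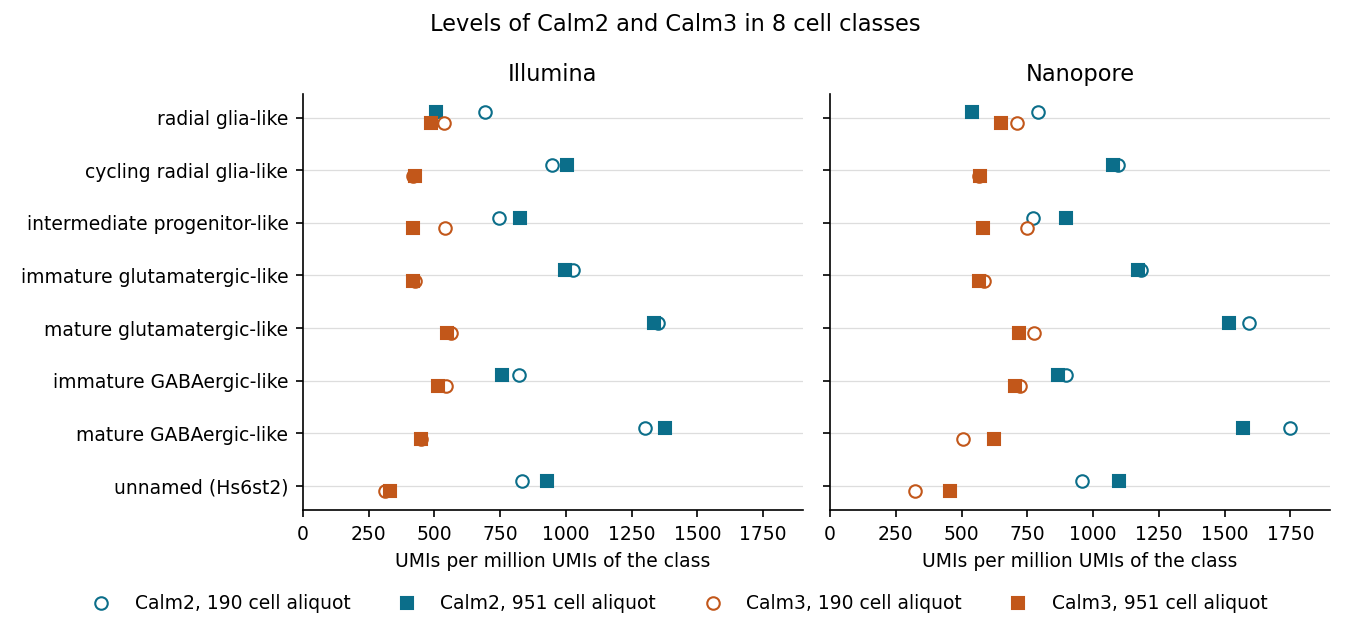
Each point is the level of Calm2 (blue) or Calm3 (orange) in the summed cells of a class and aliquot, in CPM of that class, for Illumina (left) and Nanopore (right). Calm2 runs from 506 CPM in radial glia-like cells of the larger aliquot to 1377 CPM in its mature GABAergic-like cells on Illumina, while all Illumina points of Calm3 lie between 313 and 562 CPM.

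In Illumina order, Calm2 had 1349 and 1334 CPM in mature glutamatergic-like cells and 1301 and 1377 CPM in mature GABAergic-like cells. These classes overlapped, and both lay above the other 6 of the 8. Immature glutamatergic-like cells had 1026 and 998 CPM and cycling radial glia-like cells 945 and 1004 CPM, again with overlap. The unnamed cluster had 832 and 928 CPM, immature GABAergic-like cells 823 and 755 CPM and intermediate progenitor-like cells 744 and 824 CPM, and the last of these classes overlapped with each other. Radial glia-like cells were lowest, at 693 and 506 CPM, and their aliquots were the farthest apart of the 8 classes. The cycling radial glia-like class thus held Calm2 well above the radial glia-like class in both aliquots, a comparison that was not among those tested.

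For Calm3, mature glutamatergic-like cells had 562 and 546 CPM on Illumina, immature GABAergic-like cells 545 and 515 CPM, radial glia-like cells 538 and 487 CPM and intermediate progenitor-like cells 541 and 418 CPM. Except between the highest class and the next, neighbours among these overlapped. Mature GABAergic-like cells had 450 and 449 CPM, cycling radial glia-like cells 420 and 426 CPM and immature glutamatergic-like cells 426 and 419 CPM. The unnamed cluster was lowest, at 313 and 332 CPM. On Nanopore the highest and the lowest class of Calm3 were the same as on Illumina, and all neighbours but the lowest pair overlapped.

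Cajal-Retzius-like cells, early-born neurons of the outermost layer, were too few for the tests. Their Calm2 level was 1278 and 1564 CPM on Illumina and 1219 and 1968 CPM on Nanopore, and their Calm3 level was 415 and 486 CPM on Illumina. The class held only 40 and 190 Illumina UMIs of Calm2. Within the mature glutamatergic-like class, the cluster led by Crym and Nrp2 that also holds Fezf2, a deep-layer factor, had 1475 and 1511 CPM of Calm2 and 630 and 607 CPM of Calm3. The cluster that holds Mef2c had 1161 and 1127 CPM of Calm2 and 461 and 476 CPM of Calm3. Both genes were thus higher in the former in both aliquots, as a description.

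Against radial glia-like cells, which both comparisons share, Calm2 rose in both mature neuron classes and Calm3 was not called. On Illumina, the log2 fold change of Calm2 was 1.23 (SE 0.19, adjusted p = 1.5e-07) in mature glutamatergic-like and 1.05 (SE 0.19, adjusted p = 7.79e-06) in mature GABAergic-like cells, by edgeR's quasi-likelihood test on the sums of 2 aliquots. All Calm2 values of the mature classes lay above both of radial glia-like cells. For Calm3 the log2 fold changes were 0.17 (SE 0.19, adjusted p = 0.56) and -0.30 (SE 0.20, adjusted p = 0.274). Of all genes, 32.3% and 29.8% were called in these comparisons, so that a call was common. The median log2 fold change of all genes tested was -0.002 and -0.05.

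Nanopore gave the same calls. In Nanopore CPM, Calm2 had 1592 and 1516 in mature glutamatergic-like, 1749 and 1570 in mature GABAergic-like and 790 and 539 in radial glia-like cells. The log2 fold change of Calm2 was 1.44 (SE 0.15, adjusted p = 2.11e-14) and 1.35 (SE 0.16, adjusted p = 6.33e-12), beside 38.1% and 34.7% of genes called. That of Calm3 was 0.28 (SE 0.17, adjusted p = 0.197) and -0.21 (SE 0.19, adjusted p = 0.415). The latter was -0.60 (adjusted p = 0.175) without the larger and -0.09 (adjusted p = 0.789) without the smaller mature GABAergic-like sum, and -0.39 (adjusted p = 0.339) without the larger radial glia-like sum. The Calm2 values held in all 12 alternatives on each platform, ranging from 1.01 to 1.46 and from 0.86 to 1.27 on Illumina and from 1.06 to 1.55 and from 0.90 to 1.46 on Nanopore. The classes differ in depth, with a median of 13128 and 11217 Illumina UMIs per mature glutamatergic-like cell, 5801.5 and 4868 per mature GABAergic-like cell and 10637 and 10672 per radial glia-like cell, and the part of depth in these values was not tested.

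**Figure D2:**
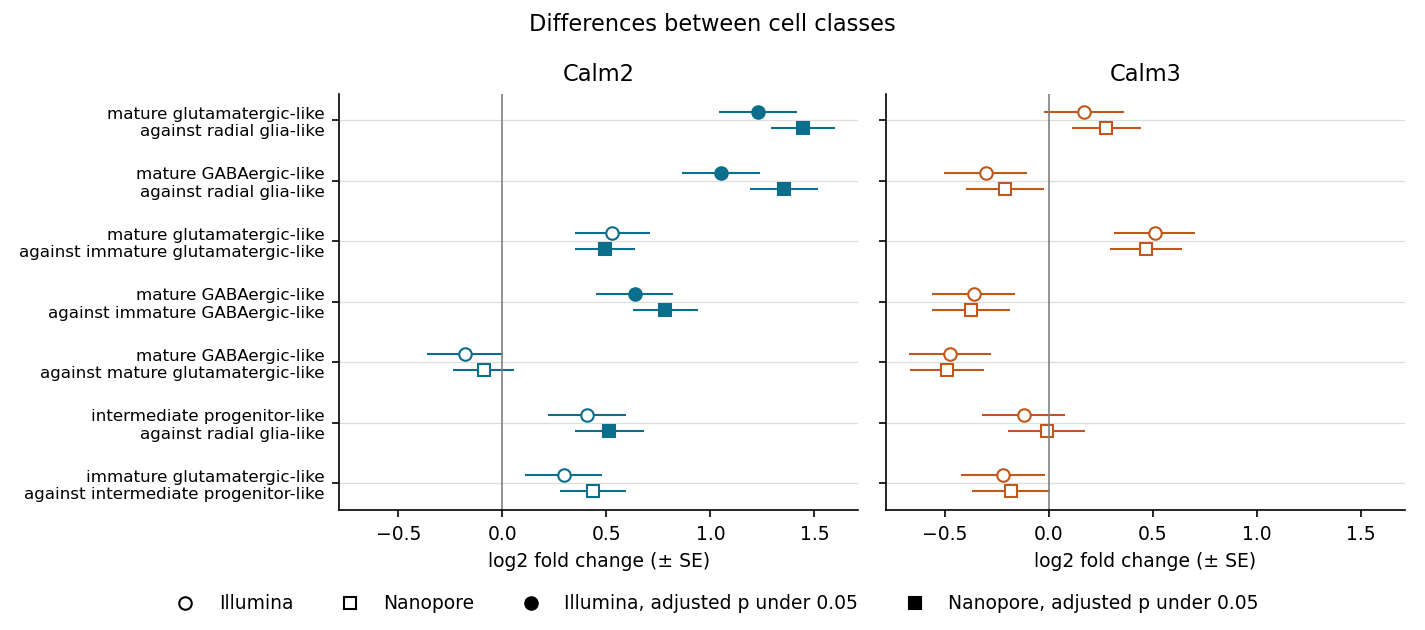
Points are log2 fold changes (edgeR) of Calm2 and Calm3 in 7 comparisons of classes, with bars for the standard error. Circles are Illumina, squares are Nanopore, and filled symbols have an adjusted p under 0.05. For Calm2 the filled points reach 1.44, while no point of Calm3 is filled.

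From immature to mature GABAergic-like cells, Calm2 was higher and Calm3 was not called. The immature class was led by Ebf1, Isl1, Zfhx3 and Foxp2 and the mature class by Sst, Maf, Nxph1 and Npy. These classes may thus be different kinds of neuron, which cannot be told apart from maturity here. GABAergic maturation below names this comparison only. Calm2 went from 823 and 755 CPM in immature to 1301 and 1377 CPM in mature GABAergic-like cells on Illumina, with no overlap (log2 fold change 0.64, SE 0.19, edgeR adjusted p = 0.0434, with 2.53% of genes called). On Nanopore it went from 896 and 866 to 1749 and 1570 CPM (0.78, SE 0.16, adjusted p = 0.000231, with 2.84% called). The Illumina call was lost without the larger mature GABAergic-like sum (0.43, adjusted p = 0.558), without either immature sum (adjusted p = 0.137 and 0.436), without a filter on low counts and without doublets, and the Nanopore call without the larger immature sum (adjusted p = 0.118). Calm3 had 545 and 515 CPM in immature and 450 and 449 CPM in mature cells on Illumina, and 721 and 704 against 505 and 624 CPM on Nanopore. Its groups did not overlap, but its log2 fold changes of -0.36 (SE 0.20, adjusted p = 0.576) and -0.37 (SE 0.19, adjusted p = 0.429) were not called. Without the larger mature GABAergic-like sum the Nanopore value was -0.72 (adjusted p = 0.33).

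From immature to mature glutamatergic-like cells, both genes had higher values, but few calls were made. Glutamatergic maturation below names this comparison only. Calm2 was at 1026 and 998 CPM in immature and at 1349 and 1334 CPM in mature glutamatergic-like cells on Illumina (log2 fold change 0.53, SE 0.18, edgeR adjusted p = 0.086, with 4.21% of genes called). On Nanopore it was at 1182 and 1171 and at 1592 and 1516 CPM (0.49, SE 0.14, adjusted p = 0.0216, with 5.57% called), a call that was lost without any 1 of the 4 sums compared, without the shared barcodes (0.44, adjusted p = 0.0543), without a filter on low counts (0.56, adjusted p = 0.215) and by DESeq2 (0.47, adjusted p = 0.197). Calm3 was at 426 and 419 CPM in immature and at 562 and 546 CPM in mature cells on Illumina, with no overlap (0.51, SE 0.19, adjusted p = 0.147), and had 0.47 (SE 0.17, adjusted p = 0.0943) on Nanopore. With the aliquot as a replicate block, Calm2 was called on Illumina (0.53, adjusted p = 1.12e-05) and Calm3 on both platforms (0.49, adjusted p = 0.00134, and 0.46, adjusted p = 0.00566). The block raised the genes called on Illumina from 223 higher and 149 lower to 624 and 399 of 8837. The clusters of the mature class differed in this. On Illumina the cluster led by Crym had 1475 and 1511 CPM of Calm2 and 630 and 607 of Calm3. The cluster that holds Mef2c had 1161 and 1127 CPM of Calm2 and 461 and 476 of Calm3, nearer to the immature values but above them in both aliquots.

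Calm3 values were thus higher in mature than in immature glutamatergic-like cells and lower in mature than in immature GABAergic-like cells, in both aliquots and on both platforms. The difference of these changes, a test added after its values were seen, was 0.87 (SE 0.28, edgeR adjusted p = 0.0941, with 2.17% of genes called) on Illumina and 0.84 (SE 0.25, adjusted p = 0.0515, with 2.42% called) on Nanopore. It missed the threshold on both platforms. With the replicate block, which raised the Illumina calls from 129 higher and 63 lower genes to 348 and 170, it passed (0.82, adjusted p = 0.000632, and 0.81, adjusted p = 0.00186). On Nanopore it also passed without the larger mature GABAergic-like sum (1.21, adjusted p = 0.0254). For Calm2 the same difference was -0.11 (SE 0.26, adjusted p = 0.99) and -0.29 (SE 0.21, adjusted p = 0.704).

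Between the mature neuron classes, Calm2 was not called: mature GABAergic-like against mature glutamatergic-like cells gave -0.18 (SE 0.18, edgeR adjusted p = 0.706, with 8.65% of genes called) on Illumina and -0.09 (SE 0.15, adjusted p = 0.824, with 9.92% called) on Nanopore. Calm3 was lower in mature GABAergic-like cells, at 450 and 449 against 562 and 546 CPM on Illumina and 505 and 624 against 774 and 718 CPM on Nanopore, without overlap. Its log2 fold changes of -0.47 (SE 0.20, adjusted p = 0.149) and -0.49 (SE 0.18, adjusted p = 0.0639) missed the threshold, and passed it with the replicate block (-0.44, adjusted p = 0.00728, and -0.45, adjusted p = 0.00997). On Illumina the block raised the genes called from 261 higher and 503 lower to 453 and 867 of 8837. Without the larger mature GABAergic-like sum the Nanopore value was -0.82 (adjusted p = 0.0994).

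Comparisons of intermediate progenitor-like cells with radial glia-like and with immature glutamatergic-like cells gave 1 call, of Calm2 on Nanopore. Intermediate progenitor-like against radial glia-like cells gave 0.40 for Calm2 (SE 0.19, edgeR adjusted p = 0.15, with 14.7% of genes called) on Illumina and 0.51 (SE 0.17, adjusted p = 0.0178, with 18.9% called) on Nanopore. The Nanopore call was lost without the larger radial glia-like sum (0.12, adjusted p = 0.843) or the larger intermediate progenitor-like sum (0.31, adjusted p = 0.498). With the replicate block Calm2 was called on Illumina too (0.51, adjusted p = 0.0004), where the genes called rose from 599 higher and 701 lower to 878 and 1038 of 8837. Calm3 gave -0.12 (SE 0.20, adjusted p = 0.786) and -0.01 (SE 0.18, adjusted p = 0.99) there, with a sign that changed without the larger intermediate progenitor-like sum.

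Immature glutamatergic-like against intermediate progenitor-like cells gave 0.30 for Calm2 (SE 0.18, edgeR adjusted p = 0.467, with 5.36% of genes called) on Illumina and 0.44 (SE 0.16, adjusted p = 0.0778, with 7.54% called) on Nanopore. With the replicate block Calm2 was called on Nanopore (0.42, adjusted p = 0.0112), while the 7.54% comes from the fit without the block. Calm3 gave -0.22 (SE 0.20, adjusted p = 0.689) and -0.18 (SE 0.19, adjusted p = 0.705).

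Because the genes encode the same protein, the share of Calm2 in their joint UMIs says how their transcripts were divided between them in a class. Other calmodulin genes do not enter this share. In the whole libraries Calm2 made up 68.0% (exact binomial 95% interval 66.2 to 69.7) and 68.9% (68.1 to 69.7) on Illumina, and 64.9% (62.7 to 67.1) and 65.1% (64.1 to 66.1) on Nanopore. Over the 8 classes, without Cajal-Retzius-like cells, Illumina shares ran from 56.3% (49.5 to 62.9) and 50.9% (47.5 to 54.4) in radial glia-like cells to 74.3% (67.2 to 80.5) and 75.4% (72.8 to 77.9) in mature GABAergic-like cells. Radial glia-like cells of the larger aliquot thus held about as many Calm3 as Calm2 transcripts, 416 and 432 UMIs.

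Cajal-Retzius-like cells had 75.5% (61.7 to 86.2) and 76.3% (70.5 to 81.4), with intervals that overlapped those of mature GABAergic-like cells. Of the remaining classes, immature GABAergic-like cells (60.2% and 59.4%) and intermediate progenitor-like cells (57.9% and 66.4%) came next above radial glia-like cells, and the latter had the widest gap between aliquots, 8.47 percentage points. Cycling radial glia-like (69.2% and 70.2%), immature glutamatergic-like (70.6% and 70.4%) and mature glutamatergic-like cells (70.6% and 70.9%) lay close together. The unnamed cluster had 72.6% and 73.7%. Across classes the shares differed by a permutation test with 100000 resamples over 16 sums of an aliquot and a class (p = 0.00024 on Illumina, p = 0.00063 on Nanopore), with 21.2 and 25.6 percentage points between the lowest and the highest class mean. When values were permuted within each aliquot as a replicate block, p was 0.00144 and 0.00223. When the share was averaged over cells, radial glia-like cells remained lowest and the unnamed cluster was highest, at 74.96% on Illumina and 72.95% on Nanopore.

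**Figure D3:**
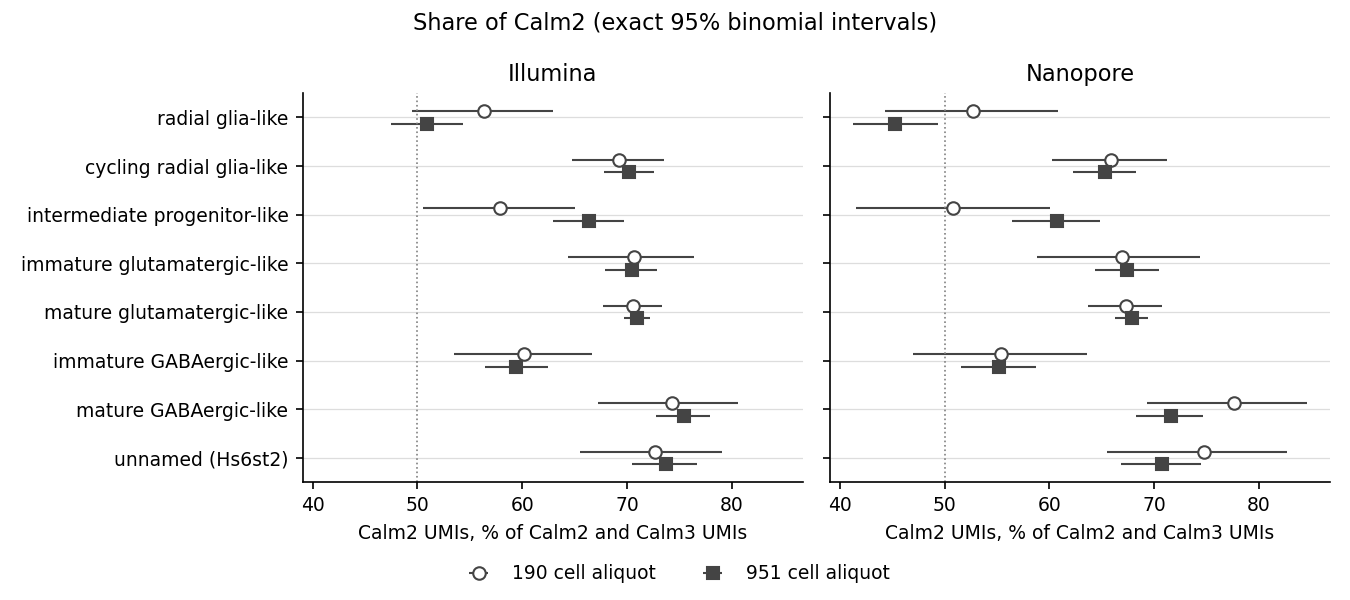
Points are the share of Calm2 in the UMIs of Calm2 and Calm3 for each class and aliquot, with exact binomial 95% intervals, for Illumina (left) and Nanopore (right); the dotted line marks equal shares at 50%. Of the 8 classes drawn, which leave out Cajal-Retzius-like cells, radial glia-like cells lie lowest on Illumina, at 56.3% and 50.9%, and mature GABAergic-like cells highest, at 74.3% and 75.4%.

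The immature and the mature GABAergic-like class stood apart in this share on Illumina, without overlap of their intervals for counting error. These were 53.5 to 66.6 against 67.2 to 80.5 in the smaller aliquot and 56.4 to 62.4 against 72.8 to 77.9 in the larger. The immature and the mature glutamatergic-like class overlapped in both aliquots. Nanopore gave 55.4% and 55.2% in immature and 77.6% and 71.6% in mature GABAergic-like cells, and 66.9% and 67.4% in immature and 67.3% and 67.9% in mature glutamatergic-like cells. In radial glia-like cells the Nanopore share was 52.7% (44.4 to 60.9) and 45.3% (41.3 to 49.4), so that Calm3 had more Nanopore UMIs than Calm2 in the larger aliquot, 326 against 270.

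In single cells of both aliquots together, Calm2 counts lay higher in the mature neuron classes than in radial glia-like cells, with overlap, as a description. To set cells of unequal depth side by side, each cell was thinned to 4000 Illumina UMIs, which left out 8 cells of the smaller and 97 of the larger aliquot (30 of them mature GABAergic-like). The median cell then had 5 Calm2 UMIs in both mature classes, 4 in cycling radial glia-like and 1 in radial glia-like cells. The lower and upper quartiles were 1 and 3 UMIs in radial glia-like cells, which reached 7. They were 3 and 7 in mature glutamatergic-like and 4 and 7 in mature GABAergic-like cells. Calm2 was at 0 in 22.4% of 67 radial glia-like cells, in 1.13% of 266 mature glutamatergic-like cells and in 0.877% of 114 mature GABAergic-like cells. Before thinning, 84.6% and 98.2% of radial glia-like and 100% and 99.6% of mature glutamatergic-like cells had a Calm2 UMI.

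For Calm3 the thinned median was 2 UMIs in both mature classes and 1 in radial glia-like cells. The means were 1.78 in radial glia-like, 1.68 in mature GABAergic-like and 2.21 in mature glutamatergic-like cells, so the medians overstate the difference. The share of cells at 0 was 16.4% in radial glia-like, 19.3% in mature GABAergic-like and 13.5% in mature glutamatergic-like cells, far closer together than for Calm2. The variance of the thinned counts divided by their mean, which is 1 for pure counting error, ranged over the 8 classes of the larger aliquot from 1.01 to 2.13 for Calm2 and from 0.684 to 1.52 for Calm3. Within classes of that aliquot the correlation of Calm2 with Calm3 across thinned cells had a median of -0.0147 and ranged from -0.286 to 0.175, a description over 56 to 223 cells in sparse counts. In the smaller aliquot, with 11 to 43 cells a class, the median was 0.0686 and the range from -0.303 to 0.632.

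**Figure D4:**
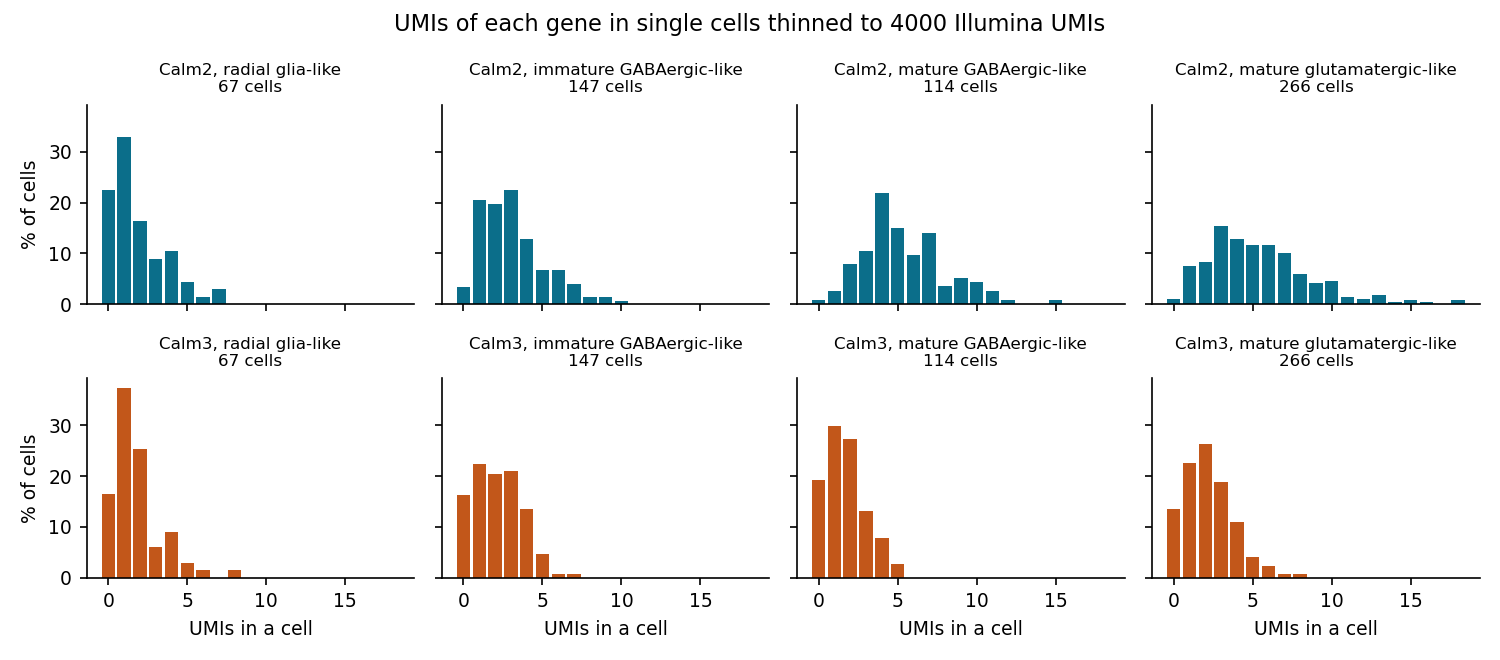
Bars give the percentage of cells (y axis) with each number of UMIs (x axis) of Calm2 (top) and Calm3 (bottom) in 4 classes, both aliquots together, after thinning to 4000 Illumina UMIs per cell. The Calm2 bars shift right from radial glia-like cells (median 1 UMI) to both mature classes (median 5), while the Calm3 medians are 1 or 2 throughout.

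Genes whose levels followed those of each member were sought over the 16 Illumina sums, on log2(CPM + 1), among 3021 genes with a mean of at least 50 CPM, other calmodulin genes left out. The closest to Calm2 by Pearson's r were Cdkn1c, a cyclin-dependent kinase inhibitor (r = 0.854), Syt1, a calcium sensor of synaptic vesicles (r = 0.82), Dpf1, a subunit of neuronal chromatin remodelling complexes (r = 0.795), Zeb2, a transcription factor (r = 0.792), and Stmn3, a stathmin that binds tubulin (r = 0.789). On Nanopore their r with Calm2 lay between 0.659 (Zeb2) and 0.862 (Dpf1). Among the 5 closest to Calm3 were Fxyd6, a regulator of the sodium pump (r = 0.723), Zbtb20, a transcription factor (r = 0.714), Gnb2, a G protein beta subunit (r = 0.694), and Ndn, a neuronal growth regulator (r = 0.686). Of these Gnb2 had an r of only 0.0674 on Nanopore. Calm2 and Calm3 themselves had an r of -0.00957 on Illumina and -0.0889 on Nanopore. The 16 sums share 2 libraries and are ranked by the same values, so these are descriptions.

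A fixed list of 60 calmodulin partners and other calcium sensors gave the surroundings of the members. It includes abundant neuronal proteins and was chosen with earlier results of these data known, so the shares called are descriptions. In mature glutamatergic-like against radial glia-like cells on Illumina, 39 were tested, 21 rose, 5 fell and 13 were not called (66.7% called, against 32.3% of all genes), with a median log2 fold change of 1.21 against -0.002 for all genes. On Nanopore 13 of 23 rose and 1 fell (60.9% called, against 38.1%). In mature GABAergic-like against radial glia-like cells, 14 of 39 rose and 5 fell on Illumina (48.7% called, against 29.8%), and 11 of 23 rose and 1 fell on Nanopore (52.2% called, against 34.7%). The group counts that follow for mature glutamatergic-like cells stand beside the same 32.3% of all genes called, 1450 higher and 1403 lower of 8837.

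Among the abundant neuronal proteins that bind calmodulin, 3 of 5 rose and 1 fell in mature glutamatergic-like against radial glia-like cells. Gap43, a growth cone protein, had 708 and 653 against 116 and 49.2 CPM (log2 fold change 3.31, SE 0.38, edgeR adjusted p = 2.05e-06). Basp1, a membrane protein of growth cones, rose by 2.38 (SE 0.22, adjusted p = 2.71e-13), and Marcksl1, a substrate of protein kinase C, by 0.90 (SE 0.16, adjusted p = 4.95e-06). In mature GABAergic-like cells Gap43 was at 176 and 193 CPM, well under its level in mature glutamatergic-like cells, whereas Calm2 overlapped between these classes.

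Of the kinases and their inhibitors, 7 of 13 rose and 1 fell. Camk2b, the beta subunit of CaM kinase II, had 195 and 185 against 11.1 and 3.51 CPM (edgeR adjusted p = 3.55e-16), and Camk2d, its delta subunit, had 3.69 and 1.49 against 72.1 and 90.1 CPM (adjusted p = 2.94e-11). Subunits of the same kinase thus moved in opposite directions. Camkv, a kinase-like protein of vesicles, had 59.0 and 59.3 CPM against 11.1 and 0 (adjusted p = 0.000102). No fold is given for these kinase genes because the lower class held only a few UMIs of each.

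Of calcineurin and its regulators, 3 of 5 rose and 0 fell (2 not called), among them the catalytic subunits Ppp3ca (log2 fold change 1.95, SE 0.24, edgeR adjusted p = 3.78e-10) and Ppp3cb (1.21, SE 0.30, adjusted p = 0.000794) and the regulatory subunit Ppp3r1 (1.30, SE 0.34, adjusted p = 0.00144). Of other enzymes, pumps and factors, 5 of 8 rose and 1 fell. The named ones were low: Nos1, neuronal nitric oxide synthase, had 9.22 and 19.0 CPM, and the calcium pumps Atp2b2 and Atp2b4 had 16.6 and 22.8 CPM and 22.1 and 16.0 CPM, against at most 5.85 CPM in radial glia-like cells. Of the other EF-hand proteins, 3 of 8 rose and 2 fell. Calb2 (calretinin) had 62.7 and 56.3 CPM against 0 and 5.85, Hpca (hippocalcin) 49.8 and 12.7 against 5.55 and 3.51 CPM, and Kcnip3, a potassium channel partner, 7.37 and 5.60 against 22.2 and 38.6 CPM (-2.37, SE 0.56, adjusted p = 0.000455).

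In mature GABAergic-like against radial glia-like cells on Illumina, 3 abundant binding proteins, 7 kinase genes, 2 calcineurin genes, 1 gene of the enzymes and pumps and 1 EF-hand gene rose, and 1, 1, 0, 1 and 2 fell. In the remaining Illumina comparisons fewer of the 39 were called. With glutamatergic maturation 6 rose and 1 fell (17.9% called, against 4.21% of all genes), of which 1 and 0 were abundant binding proteins, 2 and 1 kinase genes, and 1 and 0 came from each of the other groups. With GABAergic maturation 1 kinase gene rose and 0 genes fell (2.56%, against 2.53%). In mature GABAergic-like against mature glutamatergic-like cells 4 were higher (0, 1, 1, 0 and 2 in that order of groups) and 8 lower (2, 3, 1, 1 and 1), or 30.8% called against 8.65%. In intermediate progenitor-like against radial glia-like cells 6 rose (3, 1, 0, 2 and 0) and 3 fell (0, 1, 0, 0 and 2), or 23.1% called against 14.7%. In immature glutamatergic-like against intermediate progenitor-like cells 3 rose (1, 2, 0, 0 and 0) and 0 fell, or 7.69% called against 5.36%. For the difference in maturation 2 were higher in the glutamatergic classes, 1 abundant binding protein and 1 kinase gene (5.13% called, against 2.17%). On Nanopore, of 23 genes, 5 rose and 1 fell with glutamatergic maturation (26.1% called, against 5.57% of all genes), and 1 rose and 0 fell with GABAergic maturation (4.35%, against 2.84%). Between the mature classes 3 were higher and 6 lower (39.1%, against 9.92%). From radial glia-like to intermediate progenitor-like cells 2 rose and 1 fell (13.0%, against 18.9%), and from there to immature glutamatergic-like cells 3 rose and 0 fell (13.0%, against 7.54%). For the difference in maturation 3 were higher and 1 lower (17.4%, against 2.42%). Between platforms, 2 abundant binding proteins were higher on Nanopore and 19 of 45 tested genes were lower, 4 of them kinase genes, 4 calcineurin genes, 10 of the enzymes and pumps and 1 an EF-hand gene. The 21 calls make 46.7% of the list, near the 50.5% of all genes.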

How the data were processed

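Cells of 2 aliquots of 1 emulsion were profiled on 2 platforms. Per the labels and the study's methods, the Illumina values are raw UMI counts per gene that the authors obtained from Cell Ranger 2.0 with mm10. The Nanopore values are raw UMI counts per annotated isoform, deposited after alignment by minimap2 and an assignment of cells and molecules that used the Illumina barcodes and UMIs. They were summed per gene here. Only UMIs that matched an isoform were counted, which lowers Nanopore gene counts.

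Cells with under 1400 genes were left out. Cells were clustered with Seurat 5.3.0 on 2000 variable genes chosen without Calm2, Calm3 and the calcium list. Clusters were named from marker lists, with thresholds set after the clusters were seen. Cells that Scrublet marked as doublets (3 and 4, run within scanpy 1.11.5) were kept. Counts were summed per library, or per aliquot and class with at least 5 cells in each aliquot, and tested across all genes with edgeR 4.0.16 (TMM, filterByExpr, robust quasi-likelihood F test), with calls at a Benjamini-Hochberg adjusted p under 0.05. The scripts were tested on simulated data. Cells were never used as replicates. In edgeR the spread of each gene between aliquots is drawn towards that of all genes. Alternatives were DESeq2 1.42.0, library totals, no filter, the aliquot as a replicate block, other clusters, and leaving out doublets, shared barcodes, cells with markers of other types or single sums. The total of each library sets the precision of its counts.

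The aliquot number pairs the samples: both platforms read the droplets of 1 aliquot, and classes with the same number share an emulsion aliquot and a library. Deviations from group means correlated with 0.594 between platforms and with 0.133 to 0.329 (median 0.188) over 28 pairs of classes.

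The genes named are Calm2, Calm3 and their isoforms, up to 3 called genes with the largest change in mature glutamatergic-like against radial glia-like cells from each group of the calcium list, and the 5 genes most like each member, of which 1 for Calm3 is not reported here. The members and lists were chosen with earlier results of these data known. Gene models and sequences are from Gencode vM21 on GRCm38.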

Additional observations from a re-analysis of the deposited data

Results flagged for a closer look

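The change of Calm3 from the immature to the mature class differed between glutamatergic-like and GABAergic-like cells when the aliquot was a replicate block. This difference was 0.82 on the log2 scale on Illumina (edgeR adjusted p = 0.000632) and 0.81 on Nanopore (adjusted p = 0.00186). On Illumina the block called 348 genes higher and 170 lower of 8837, against 129 and 63 without it. Its p-value on Illumina rests mainly on a spread shared over all genes, and little on the aliquots of Calm3 itself. Without the block the difference was 0.87 (adjusted p = 0.0941) and 0.84 (adjusted p = 0.0515). Calm3 was higher in the mature than in the immature glutamatergic-like sum in both aliquots and lower in the mature than in the immature GABAergic-like sum in both. Over all alternatives the difference lay between 0.63 and 1.05 on Illumina and between 0.64 and 1.21 on Nanopore. The comparison was added after the values had been seen, the platforms share the captured molecules, and the cause was not tested. The immature GABAergic-like class was led by Ebf1 and Isl1 and the mature one by Sst and Maf. Kind of neuron and maturity thus cannot be told apart in this difference.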

How the results depend on the processing

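The rise of Calm2 in both mature neuron classes against radial glia-like cells, the higher Calm3 on Nanopore and the difference in share between classes kept their direction and call in every alternative run. The highest class of that share changed from the mature GABAergic-like to the unnamed one when shares were averaged over cells on both platforms and, on Nanopore, without the smaller mature GABAergic-like sum (72.8% in the unnamed cluster) or the larger sum of the unnamed cluster (74.8%). With library totals the Calm2 platform difference was 0.14 (adjusted p = 0.0909), and of all called genes 26.4% were higher on Nanopore, against 39.9% with TMM. Calls gained or lost per comparison, as log2 fold changes, were as follows. With GABAergic maturation on Illumina, Calm2 was not called without a filter (0.60, adjusted p = 0.341) or without doublets (0.63, 0.0609), nor on Nanopore without a filter (0.74, 0.0723). With glutamatergic maturation on Nanopore, Calm2 was not called without a filter (0.56, 0.215), without shared barcodes (0.44, 0.0543) or by DESeq2 (0.47, 0.197). In intermediate progenitor-like against radial glia-like cells, Calm2 was called on Illumina with library totals (0.40, 0.0423) and not on Nanopore without a filter (0.50, 0.235) or by DESeq2 (0.43, 0.302). Calm3 turned positive there on Nanopore without a filter (0.0049) and without cells with markers of other types (0.053). In immature glutamatergic-like against intermediate progenitor-like cells on Nanopore, Calm2 was called with library totals (0.46, 0.0299). Between the mature classes on Nanopore, Calm2 turned positive with library totals (0.079) and Calm3 was called with clusters that used the members (-0.50, 0.0396). The difference in Calm3 maturation was called on Nanopore with those clusters (0.88, 0.0216), without doublets (0.85, 0.0448) and without shared barcodes (0.82, 0.0476). With the aliquot as a replicate block, the calls gained were, for Calm2, 0.53 and 0.51 on Illumina (glutamatergic maturation, intermediate progenitor-like against radial glia-like) and 0.42 on Nanopore (immature glutamatergic-like against intermediate progenitor-like), and for Calm3, 0.49 and 0.46 (glutamatergic maturation on Illumina and Nanopore), -0.44 and -0.45 (between mature classes) and 0.82 and 0.81 (difference in maturation). The block changed no other call of these genes. It called more genes in every Illumina comparison, and the percentages of genes called given above are those without it.

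Leaving out 1 library gave 0.28 to 0.39 for Calm2 and 0.50 to 0.60 for Calm3 between platforms. Leaving out 1 sum gave, for Calm2 on Illumina, 0.43 to 0.77 with GABAergic and 0.45 to 0.61 with glutamatergic maturation, 0.22 to 0.62 in intermediate progenitor-like against radial glia-like cells and -0.24 to 0.11 for the difference in maturation. For Calm2 on Nanopore it gave 0.71 to 0.76, 0.48 to 0.55 and 0.12 to 0.67 for the same first 3 comparisons. Calm3 in intermediate progenitor-like against radial glia-like cells ranged from -0.18 to 0.029 on Illumina and from -0.16 to 0.16 on Nanopore, and its difference in maturation from 0.78 to 1.05 and from 0.74 to 1.21. The distance between the lowest and the highest class share ranged from 18.5 to 23.9 and from 21.9 to 29.3 percentage points, with p of at most 0.00852. A lone sum was assumed to vary like the other classes. Isoform usage gave no call of the members in any setting, and was not run with sums left out because the members were not testable. Library totals moved the share of higher calls from 59.9% to 47.3% and from 60.7% to 46.2% with glutamatergic maturation (Illumina and Nanopore), from 44.2% to 55.3% and from 45.3% to 57.3% with GABAergic maturation, from 34.2% to 47.8% and from 36.9% to 53.7% between mature classes and from 67.2% to 47.2% and from 62.7% to 41.5% for the difference in maturation. The smallest sum, 102226 Illumina UMIs of mature GABAergic-like cells, holds 46 UMIs of Calm3, which limits its precision.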
